A study of Homo sapiens with 2 samples.

Results

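The genes described here are ZEB1, SNAI1 and SNAI2, transcription factors of the epithelial-mesenchymal transition (EMT), the mesenchymal filament gene VIM, and 3 genes of epithelial identity, EPCAM, ESRP1 and ST14. They were chosen with earlier results of these data known, and read as the probe sets whose platform gene symbol is one of these 7. All 7 were found, on 9 probe sets, among 14884 named genes. Their levels were read in AsPC-1 cells, a human cell line established from pancreatic adenocarcinoma, cultured in 3 dimensions with a collagen gel laid over the cells. The uncompressed group is 1 culture left without load for 24 h, and the compressed group is 1 culture kept under 2.9 mmHg for 24 h. Both share the cell line, the medium with serum and the gel, and the labels name no genetic change or drug. Each culture's total RNA was read on 1 whole-transcript array, the GeneChip Human Gene 2.0 ST, which gives 1 level per probe set as a log2 RMA signal. With 1 array per condition there is no replicate, no test and no p-value, and the precision of every difference is limited by that number of arrays. "Higher" and "lower" refer to these 2 arrays, and a difference is the log2 level in the compressed minus that in the uncompressed culture. The samples are bulk RNA, so fewer cells expressing a gene and less RNA per cell cannot be told apart.

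In EMT an epithelial cell loses its junctions and polarity and gains motility and an intermediate filament network of vimentin. ZEB1, SNAI1 and SNAI2 are zinc finger proteins that bind E-box sequences in promoters of epithelial genes and recruit corepressors there. ZEB1 and the microRNAs of the miR-200 family repress each other, which makes a feedback loop, and the splicing factor ESRP1 maintains the epithelial forms of many transcripts. EPCAM is an adhesion molecule of epithelial cells, and ST14 encodes matriptase, a membrane-anchored serine protease that acts in epithelial barriers. In pancreatic cancer ZEB1 is known for its link to poor differentiation and invasion.

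The miR-200 sequences are shown because they are the known opponents of ZEB1 and the array carries probe sets for their precursors. The mature forms below are from RefSeq (GRCh38.p14), 5′ to 3′, with the seed, bases 2 to 8, in capitals. All 6 names searched for were matched in the RefSeq table.
hsa-miR-200b-3p: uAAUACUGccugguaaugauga
hsa-miR-200c-3p: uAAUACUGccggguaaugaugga
hsa-miR-429: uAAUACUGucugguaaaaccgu
hsa-miR-200a-3p: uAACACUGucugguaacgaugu
hsa-miR-141-3p: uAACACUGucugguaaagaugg
hsa-miR-205-5p: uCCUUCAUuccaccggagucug
The 5 members of the miR-200 family fall into 2 seed groups. The miR-200b, miR-200c and miR-429 seed pairs with the DNA letters CAGTATT in a target, and the miR-200a and miR-141 seed with CAGTGTT. They come from a cluster on the plus strand of chromosome 1, where mature miR-200b-3p lies at chr1:1167160-1167181, miR-200a-3p at chr1:1167916-1167937 and miR-429 at chr1:1169055-1169076, and from a pair on the plus strand of chromosome 12, miR-200c-3p at chr12:6963742-6963764 and miR-141-3p at chr12:6964155-6964176. The unrelated miR-205, which also represses ZEB1, is at chr1:209432166-209432187 on the plus strand.

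Promoter sequence was matched for 2 of the 7 members, ZEB1 and VIM. The RefSeq windows run from 250 bases before to 50 after an annotated start, and ZEB1 has 7 of them. The E-box CAGGTG, which ZEB and SNAIL proteins bind, and its reverse complement CACCTG were searched, so both strands were covered by reading 1 strand. At least 1 match was found in 20.6% of the 35116 windows of the table and 3 or more in 0.635% of them. In ZEB1, 2 of 7 windows held a match, 1 of them with 3 matches and the other with 1. The window with 3 is shown because it is the densest among the windows of ZEB1 and VIM. It lies at chr10:31318966-31319265 on the plus strand (GRCh38.p14), with the E-boxes in capitals.
ZEB1: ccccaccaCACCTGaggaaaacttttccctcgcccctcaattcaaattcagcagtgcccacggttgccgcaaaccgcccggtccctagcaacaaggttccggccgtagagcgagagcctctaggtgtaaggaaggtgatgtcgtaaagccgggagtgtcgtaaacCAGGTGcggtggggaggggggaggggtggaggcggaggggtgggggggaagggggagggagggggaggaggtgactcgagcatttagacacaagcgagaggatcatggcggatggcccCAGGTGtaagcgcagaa
The VIM window, chr10:17227991-17228290 on the plus strand, is shown for contrast and has no match in its 300 bases.
VIM: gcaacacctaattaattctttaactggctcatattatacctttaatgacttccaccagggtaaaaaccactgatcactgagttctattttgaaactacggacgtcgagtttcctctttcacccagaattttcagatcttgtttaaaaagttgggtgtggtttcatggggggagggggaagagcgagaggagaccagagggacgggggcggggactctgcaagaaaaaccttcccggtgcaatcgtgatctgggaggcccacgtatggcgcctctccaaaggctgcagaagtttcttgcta
These matches describe the letters of the windows and say nothing about binding in these cells. Among the 5884 genes with a window that also passed the level floor described next, the 1348 with a match in any window had a median difference of 0.00 and the others of 0.02.

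Most values below are set against a floor and a size. The floor is a log2 level of 4.79, the median over genes of the mean of both arrays, and 7442 genes were at or above it. The size is 1.5-fold, or 0.58 on the log2 scale. Over these 7442 genes the middle 90% of differences lay between -0.39 and 0.53, with a median of 0.01, and the arrays correlated with a Pearson r of 0.972 across genes, which are not independent replicates. Of the 7 members, 6 were at or above the floor, and SNAI1 was below it on both arrays. Whether a probe set below the floor was above background is unknown here, since no detection calls were used.

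The EMT factors and vimentin were all higher in the compressed culture, and the epithelial genes were all lower. Among the 3 EMT genes at or above the floor, ZEB1 alone was at least 1.5-fold higher, which 3.95% of all 7442 genes were. None of the 3 epithelial genes was at least 1.5-fold lower, which 1.12% of the genes were. At a smaller size of 0.32 on the log2 scale, 2 of the 3 EMT genes were higher, against 13.5% of all genes, and 3 of the 3 epithelial genes were lower, against 8.28%. The median difference was 0.54 for the 3 EMT genes and -0.40 for the epithelial genes, beside 0.01 over all genes. Of all genes, 50.8% had a difference above 0 and 46.8% one below 0. The 7 members were picked with these directions already known, so that the groups do not overlap is a description and no support for a shift.

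**Figure D1:**
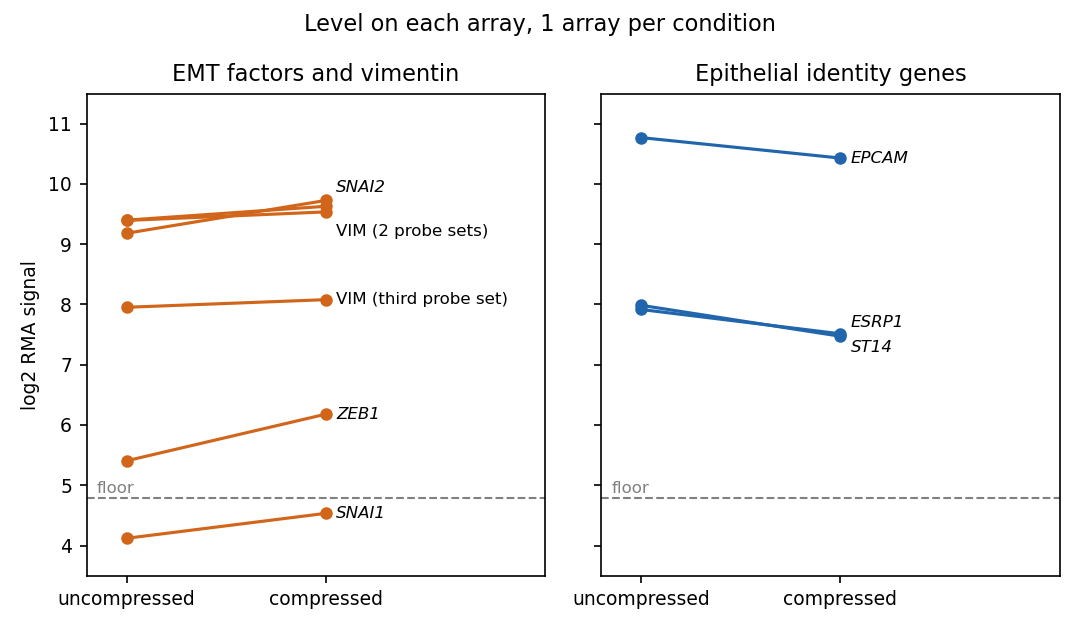
Log2 RMA signal (vertical axis) of each of the 9 member probe sets on the uncompressed and the compressed array, 1 array per condition, with EMT factors and vimentin on the left and epithelial identity genes on the right. Each line joins the values of 1 probe set and the dashed line is the floor of 4.79. All lines on the left go up, most steeply ZEB1 from 5.41 to 6.18, and all on the right go down.

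Of the transcription factors, ZEB1 (probe set 16703715, Entrez gene 6935) showed the largest difference. Its level was 5.41 without load and 6.18 under load, so that it lay 0.61 above the floor on the former array and 1.39 above it on the latter. This is 1.71-fold higher, a difference of 0.77. Of the 7442 genes, 143 (1.92%) had a difference as large or larger. When the 7442 genes were split into 10 classes of equal number by level, ZEB1 fell in the 4th from below. In that class the middle 90% of differences lay between -0.37 and 0.57, and 15 of 744 genes were as high or higher. ZEB1 was thus outside the central spread of genes of its level on these arrays. The antisense RNA gene ZEB1-AS1, which lies head to head with ZEB1 and overlaps it in RefSeq, read 4.97 and 5.34, a difference of 0.36. It was chosen after its values were seen.

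SNAI2 (probe set 17077004, Entrez gene 6591), which encodes the repressor Slug, read 9.18 without load and 9.73 under load. The signal was far above the floor on both arrays. It was 1.46-fold higher, a difference of 0.54 that falls just short of the size. Of the 7442 genes, 357 (4.80%) differed by as much or more, and of the 745 genes in its class, the brightest, 37 did. The 95th percentile of that class was 0.54, so SNAI2 sat at the edge of its level class.

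SNAI1 (probe set 16914791, Entrez gene 6615), which encodes the repressor Snail, read 4.12 without load and 4.53 under load. Both values lie under the floor, at -0.67 and -0.26 relative to it, so no fold is given and SNAI1 is in none of the counts of genes at or above the floor. The difference was 0.41, in the same direction as ZEB1 and SNAI2. Snail is a short-lived protein that is controlled largely by its stability, which RNA levels do not show.

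VIM (Entrez gene 7431) was the only member with more than 1 probe set. The brightest, 16712274, read 9.40 and 9.63, a difference of 0.23 or 1.17-fold. Probe set 16712272 read 9.39 and 9.54, a difference of 0.14. Probe set 16702767 was dimmer and read 7.95 and 8.08, a difference of 0.13. All 3 were higher in the compressed culture, and their mean difference was 0.17. The difference of the brightest lies inside the middle 90% of genes, and 1509 of the 7442 genes (20.3%) had one as large or larger. Over 140 protein-coding genes with exactly 2 probe sets above the floor, the differences of the paired probe sets were apart by 0.14 in the median and by 0.45 at the 90th percentile, and the VIM probe sets were closer to each other than that median.

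The lowest of the epithelial genes was ST14 (probe set 16733473, Entrez gene 6768). It read 7.99 without load and 7.47 under load, 1.43-fold lower, a difference of -0.51. Of the 7442 genes, 144 (1.93%) were as low or lower, and 12 of the 744 genes in its level class were. The middle 90% of that class ran from -0.35 to 0.43, and ST14 lay below it. ST14 thus took about the same place from the bottom of the distribution as ZEB1 did from the top, with a smaller difference.

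ESRP1 (probe set 17070949, Entrez gene 54845), the epithelial splicing regulatory protein, read 7.92 without load and 7.51 under load. It was 1.32-fold lower, a difference of -0.40. Of the 7442 genes, 327 (4.39%) were as low or lower, and 29 of the 744 genes in its class were. It lay in the same level class as ST14 and likewise below the middle 90% of it.

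EPCAM (probe set 16879863, Entrez gene 4072) read 10.77 without load and 10.43 under load and stayed nearly 6 log2 units above the floor on both arrays, at 5.97 and 5.63. It was 1.27-fold lower, a difference of -0.34. Of the 7442 genes, 530 (7.12%) were as low or lower. In the brightest class, which also holds SNAI2 and VIM, the middle 90% ran from -0.36 to 0.54, and EPCAM lay inside it with 45 of 745 genes as low or lower. As deposited, EPCAM had the smallest difference of the epithelial genes.

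**Figure D2:**
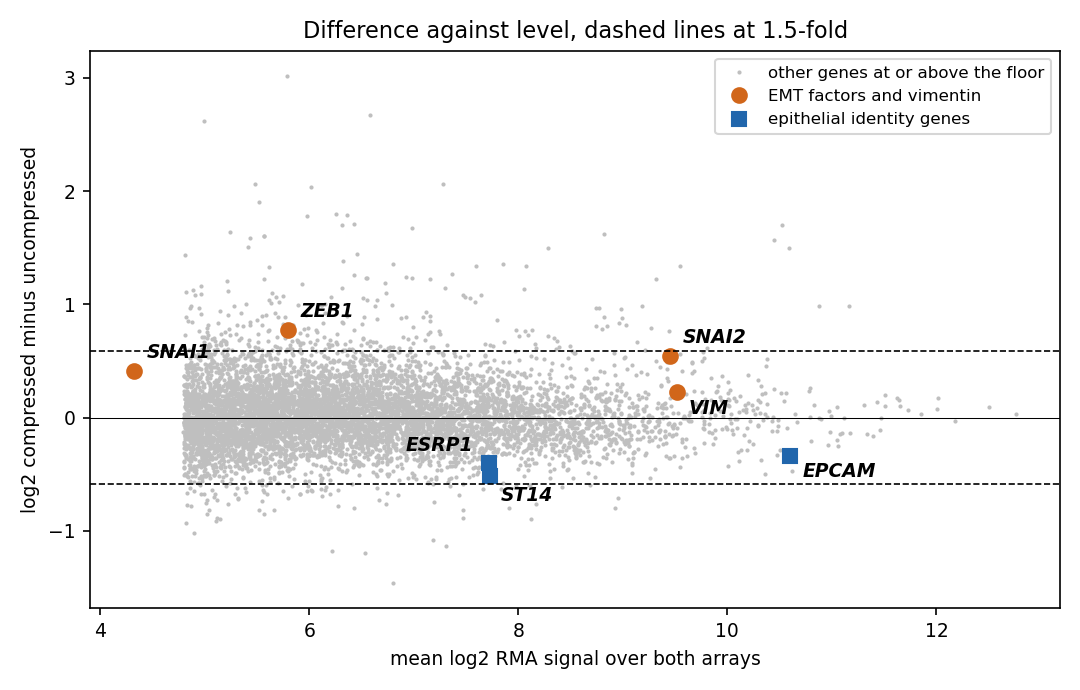
Log2 compressed minus uncompressed (vertical axis) against the mean log2 RMA signal of both arrays (horizontal axis) for the 7442 genes at or above the floor, in grey, with EMT factors and vimentin as orange circles and epithelial identity genes as blue squares, 1 array per condition. SNAI1 is drawn although it lies under the floor. ZEB1 is above the upper dashed line at 1.5-fold, and no other member passes either line.

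In the order of the differences the members ran from ZEB1 (0.77) through SNAI2 (0.54), SNAI1 (0.41) and VIM (0.23) to EPCAM (-0.34), ESRP1 (-0.40) and ST14 (-0.51). The gap between VIM and EPCAM, 0.57, was the widest between neighbours. The other gaps were 0.23 between ZEB1 and SNAI2, 0.13 between SNAI2 and SNAI1, 0.18 between SNAI1 and VIM, 0.06 between EPCAM and ESRP1 and 0.11 between ESRP1 and ST14. Each of these is below the 90th percentile of the gap between 2 probe sets of 1 gene (0.45), so the order within the EMT genes and within the epithelial genes is not settled. That percentile comes from the same 2 arrays and holds no variation between cultures, so it does not settle the wider gap between VIM and EPCAM either.

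The differences were recomputed under 5 other treatments of the same values. All 35 recomputed differences, those of SNAI1 included, kept their direction and their side of 1.5-fold. Some of these had little or no room to move, since taking the mean of all probe sets could change VIM alone. Centring on the median shifted every member by only 0.01. ZEB1 ranged from 0.72 to 0.77, SNAI2 from 0.46 to 0.56 and SNAI1 from 0.41 to 0.48. ST14 ranged from -0.56 to -0.51 and ESRP1 from -0.45 to -0.40. The largest moves came from quantile normalization restricted to the named probe sets. It took EPCAM to -0.53, about level with ST14 at -0.55 and beyond ESRP1 at -0.44, and VIM to 0.15, while the median of all genes went to -0.03. EPCAM and VIM were the members whose difference moved by over 1.5 times, and EPCAM also changed its place among the epithelial genes.

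**Figure D3:**
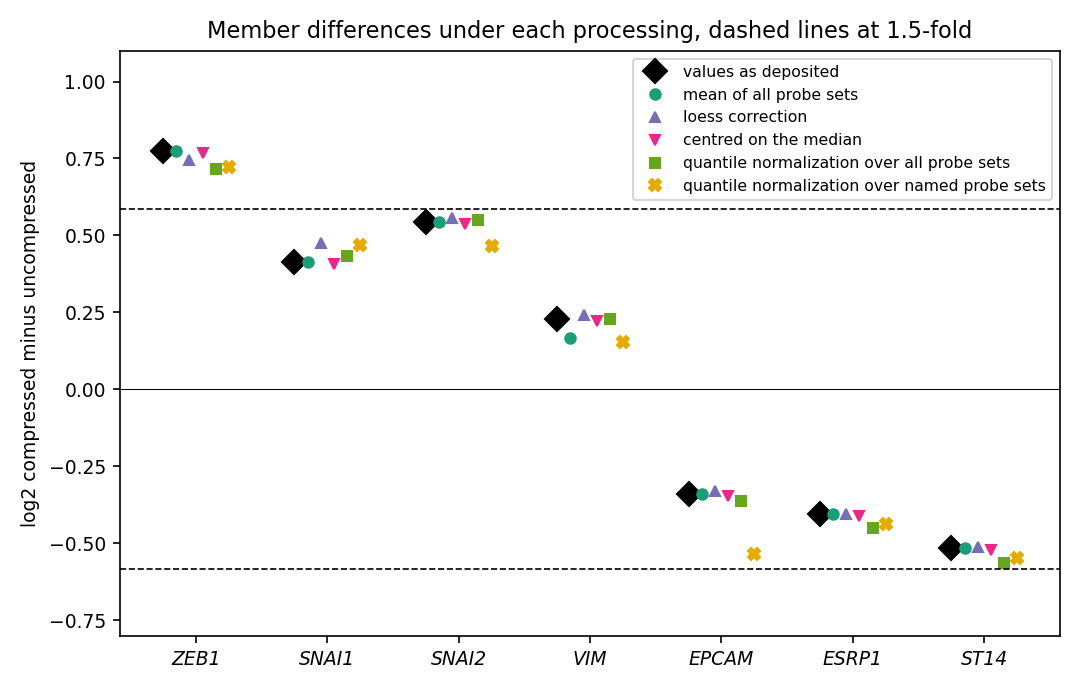
Log2 compressed minus uncompressed (vertical axis) of each member for the values as deposited (black diamonds) and under 5 other treatments (coloured symbols), 1 array per condition. The dashed lines mark 1.5-fold. ZEB1 stays above the upper line and all other members stay between the lines, with EPCAM spread from -0.53 to -0.33.

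The precursors of the ZEB1-opposing microRNAs were all below the floor on both arrays. MIR200C read 2.86 without load and 3.71 under load, and MIR141 of the same pair read 3.67 and 3.47. In the chromosome 1 cluster, MIR200B read 3.27 and 3.10, MIR200A 2.35 and 2.66 and MIR429 2.76 and 3.07. MIR205 read 2.81 and 2.56, and MIR34A, which represses SNAI1, had the same value of 3.58 on both arrays. The differences had no shared sign, with 3 miR-200 precursors higher and 2 lower, also between partners of 1 cluster. Whole-transcript arrays measure precursor RNA at best, so these values give no level of the mature sequences printed above.

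Among genes at or above the floor, the other EMT transcription factors were not higher by as much as ZEB1 and SNAI2. The members were picked with their directions known. Of 15 listed, 12 had a named probe set and 6 were at or above the floor. None of the 6 passed 1.5-fold in either direction, 4 had a difference above 0, and their median was 0.08. For this list and those below, the shares over all 7442 genes were 50.8% above 0 and 46.8% below 0. At 1.5-fold they were 3.95% higher and 1.12% lower. FOXQ1, a forkhead factor, was among the highest, at 0.16 (5.96 and 6.13). SOX4 was the lowest, at -0.39 (7.73 and 7.34). ZEB2, the paralog of ZEB1, read 3.47 and 3.40 and TWIST1 2.61 and 2.96, both under the floor on both arrays. The sign of ZEB2 turned under loess correction, to 0.01. TWIST1 differed by 0.34, near SNAI1 (0.41), which is also under the floor. KLF8, under the floor too, went the other way, at -0.34. SNAI3, a relative of SNAI1 and SNAI2, and GSC were above the floor on both arrays and differed by 0.07 and -0.06.

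The proteins that ZEB and SNAIL factors recruit were mixed. Of 14 corepressor genes at or above the floor, none passed 1.5-fold, 6 had a difference above 0 and 8 below, and the median was -0.06. The histone H3K9 methyltransferase genes EHMT2 (6.99 and 6.50) and SUV39H1 (6.27 and 5.86) were the lowest, at -0.50 and -0.41, and the deacetylase gene SIRT1 was the highest, at 0.32. Genes that set the stability of the Snail protein had a median of -0.03 over 8 genes, and its sign turned with the mean in place of the median. None of these 8 passed 1.5-fold. GSK3B, the kinase that marks Snail for degradation, was the highest at 0.51 (7.75 and 8.26), while BTRC, the ubiquitin ligase subunit that reads this mark, had the same value of 6.64 on both arrays.

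Mesenchymal effector genes other than VIM were few among the named probe sets. Of 18 listed, 7 were named and 4 were at or above the floor, with a median of 0.19, 2 differences above 0 and 2 below, and none past 1.5-fold. CD44, a hyaluronan receptor, differed by 0.54 (7.41 and 7.95), about the same as SNAI2, and the receptor kinase gene AXL by 0.43 (7.91 and 8.34). TNC and S100A4 differed by -0.07 and -0.06. FN1, fibronectin, had the same value of 3.18 on both arrays, under the floor, and CDH2 was not analysed here. Of the genes for TGF-beta family ligands and receptors, which induce ZEB1 and SNAI1 in many cells, 2 of 10 were named, BMP4 at -0.03 (10.23 and 10.20) and BMP2 under the floor.

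Vimentin's partners in the filament network were mixed. Of 8 genes at or above the floor, none passed 1.5-fold and 6 had a difference above 0, beside 50.8% of all genes. The median was 0.04, with a sign that turned under either quantile normalization. KRT80, a keratin gene, and PLEC, which links filaments to junctions, were the highest, at 0.45 and 0.27, and the nuclear lamin gene LMNA was the lowest, at -0.26. The epithelial keratin gene KRT18 differed by 0.18 (11.54 and 11.71), and KRT19 by 0.01 (10.78 and 10.79), the latter at -0.23 after quantile normalization restricted to named probe sets. As deposited, no keratin gene of the list was lower, unlike EPCAM, ESRP1 and ST14.

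The other epithelial genes had a median closer to 0 than the 3 members. The members were picked with their directions known, so this contrast is no result about them. Of 17 genes of adhesion and polarity at or above the floor, 12 had a difference below 0 and 5 above. Over all genes these shares were 46.8% and 50.8%. The list's median was -0.05 and none of its genes passed 1.5-fold. CRB3, a polarity protein gene known as a target of ZEB1 repression, was the lowest at -0.54 (6.12 and 5.58), and passed 1.5-fold after either quantile normalization, at -0.60. OCLN and TJP1, which encode the tight junction proteins occludin and ZO-1, were the highest, at 0.30 each. CLDN7, a partner of EPCAM in the membrane, read 8.20 on both arrays. CDH1 was not analysed here.

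Of 5 epithelial transcription factor genes at or above the floor, 3 were lower, beside 46.8% of all genes. None of the 5 passed 1.5-fold and the median was -0.17. GATA6 was the lowest at -0.23 (6.58 and 6.36). GRHL2 and OVOL2, which repress ZEB1, were under the floor in the uncompressed culture, at 3.18 and 4.57, and read 3.08 and 4.86 in the compressed one.

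Genes around ESRP1 were lower in part. Of 7 splicing regulators at or above the floor, 5 had a difference below 0, beside 46.8% of all genes. The list's median was -0.23 and none of the 7 passed 1.5-fold. RBM47, an RNA-binding protein of epithelial splicing, differed by -0.52 (5.26 and 4.74), more than ESRP1, and ended under the floor. ESRP2, the paralog of ESRP1, differed by -0.23 (6.37 and 6.14). The lower genes also included HNRNPM and PTBP1, at -0.31 and -0.25, of which HNRNPM is known to oppose ESRP1. MBNL1 was the highest at 0.33 (9.27 and 9.60), although its second probe set differed by -0.09. Of 6 genes whose transcripts ESRP proteins splice, 5 had a difference above 0, beside 50.8% of all genes. The median of the 6 was 0.18 and CD44 was the highest, but the values are for whole genes and tell nothing of exon choice.

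Around EPCAM, most of the protease genes that cleave it had a difference above 0, as 50.8% of all genes did. ADAM17 differed by 0.36 (7.05 and 7.41) and ADAM10 by 0.25. The gamma-secretase subunit genes PSENEN, NCSTN and APH1A differed by 0.32, 0.15 and 0.10. PSEN2, a catalytic subunit of gamma-secretase, differed by -0.20 (4.97 and 4.76) and ended under the floor. TSPAN8, a tetraspanin found in complexes with EPCAM, was 1.73-fold lower (8.31 and 7.52) and alone among 10 genes of this list passed 1.5-fold. Over all genes, 1.12% were at least 1.5-fold lower. The median of the EPCAM list was 0.12. Around ST14, 5 of 13 listed genes were named and 4 were at or above the floor. CDCP1, a membrane protein cleaved by matriptase, was 1.55-fold higher (8.18 and 8.81), and 3.95% of all genes were at least 1.5-fold higher. MET, the receptor of the growth factor that matriptase activates, differed by 0.07 (10.14 and 10.21), with a sign that turned when named probe sets alone were quantile normalized, as did that of the list's median, 0.08. SPINT1, SPINT2 and PRSS8, the inhibitors and the partner protease of matriptase, were not analysed here.

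**Figure D4:**
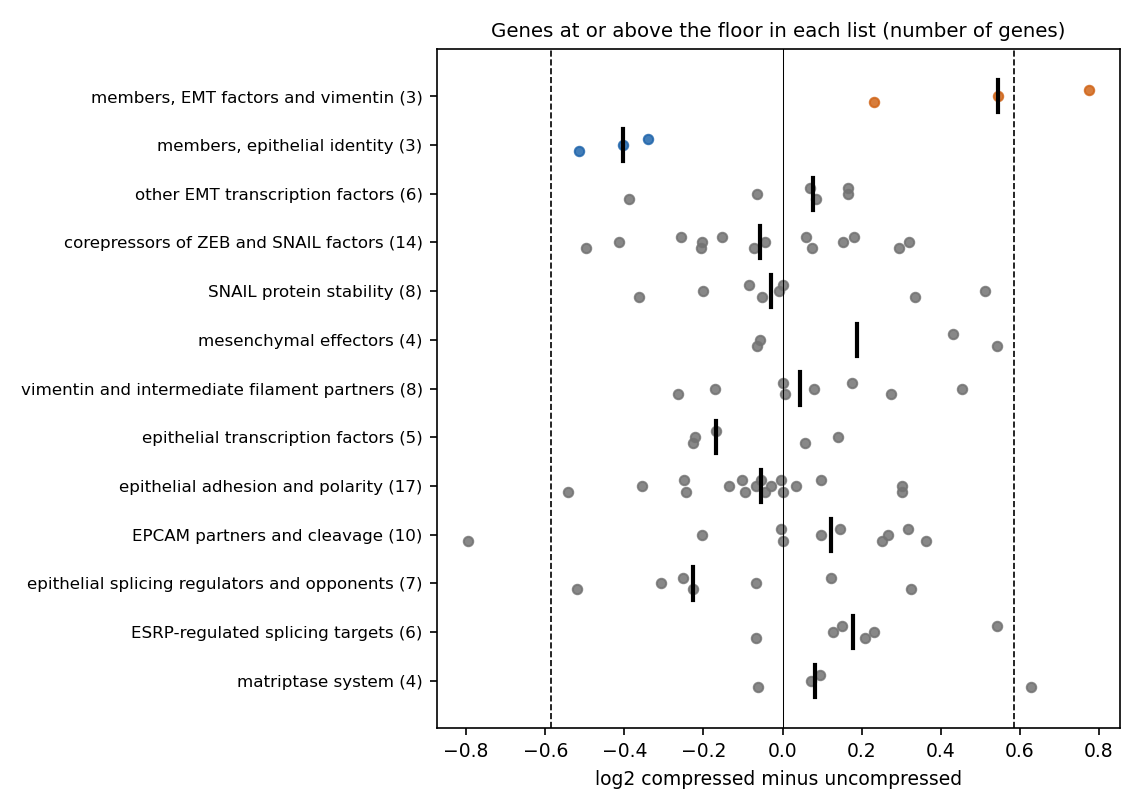
Log2 compressed minus uncompressed (horizontal axis) of every gene at or above the floor in each list with at least 3 such genes, cell type marker lists left out, 1 array per condition, with the EMT members in orange, the epithelial members in blue and other genes in grey. Black bars are medians, dashed lines mark 1.5-fold, and numbers in brackets count genes, some of which are in more than 1 list. The EMT members have a median of 0.54 and the epithelial members of -0.40, while the medians of the other lists drawn lie between -0.23 and 0.19. The members were picked with their directions known, so this contrast is no support for a shift.

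The label of the cells was checked against markers. Of 10 named duct carcinoma markers 9 were at or above the floor, with a mean level of all 10 of 7.80 without load and 7.81 under load, KRT7 was below it, and TSPAN8 was 1.73-fold lower under load. Of the fibroblast markers 3 of 10 were named, with a mean log2 level of 5.44 without load and a mean difference of -0.03. DCN read 1.79 and 1.82, THY1 4.77 and 4.99 and LUM, a proteoglycan gene, 9.75 and 9.39. The endothelial markers, 4 of 6 named with 1 above the floor, had a mean of 3.96 without load and 3.84 under load. The leukocyte markers, 3 of 7 named with 2 above the floor, had a mean of 7.05 without load and 7.26 under load. This is not far below the duct mean, so mean level did not clearly separate these lists. CD14 read 3.65 and 3.71, and the lysozyme gene LYZ was lower, at 9.04 and 8.82. The lysosomal glycoprotein gene CD68 was 1.75-fold higher, at 8.45 and 9.26. No marker was listed at 0, but neither was any probe set, so this does not check the label. The lowest values were 0.16 without load and 0.29 under load. The part of other cells in the member values was not tested.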

How the data were processed

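RNA of 2 AsPC-1 cultures was measured on 1 array each. The deposited values are log2 signals. For their making the submitters' processing notes name RMA and Transcriptome Analysis Console software. RMA equalises the arrays' probe intensities before summarising them, so a change shared by all genes is largely removed, and differences near background are compressed. The medians of the deposited probe-set values still differed a little, at 3.75 without load and 3.72 under load. No software version or genome build is given in the sources used here. Groups came from the treatment label. Platform annotation named 16098 of 53617 probe sets, all with 1 gene, and RefSeq (GRCh38.p14) gave current symbols. The other 37519 were not used. For a gene with several probe sets the brightest was used. The floor was the median gene level. Members and lists were chosen with earlier results of these data known. Genes named are the members and, per list, genes past 1.5-fold, up to 3 extremes in each direction and 12 fixed genes, and others named beside them were chosen after their values were seen. The script that counts genes past the size was tested on simulated data with known differences, which gives no error rate for these arrays. Identical values on both arrays were found for 5.82% of probe sets. Python 3.11.15, pandas 2.3.3 and statsmodels 0.14.6 (loess, span 0.3) were used.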

Additional observations from a re-analysis of the deposited data

How the results depend on the processing

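With 1 array per condition no replicate could be left out. No paired analysis was possible because each group has 1 sample. The number of EMT genes past the size, 1 as reported, was 0 with the floor at the 75th percentile, where ZEB1 falls out, 0 at 2-fold and 2 at a size of 0.32 (log2). The number of epithelial genes, 0 as reported, was 3 at 0.32. The share of all genes higher was 0.954% at 2-fold and 13.5% at 0.32, and the share lower 0.0806% and 8.28%, and 2.83% with no level filter. The median of the EMT genes ranged from 0.39 to 0.56 over 9 alternatives and that of the epithelial genes from -0.53 to -0.40, each on the same side of the size. A floor on the brighter array was added after the data were seen and changed no count of members. Of the 12 list medians recomputed, 4 changed sign under at least 1 alternative: Snail stability, vimentin partners, the matriptase system and duct markers. All 12 moved by over 1.5 times under at least 1 alternative, among them mesenchymal effectors to 0.43 with the floor at the 75th percentile, epithelial transcription factors to -0.05 with the mean of all probe sets, and other EMT factors to 0.0057 and splicing regulators to -0.13 when lists were summarised by the mean. The absence of detection calls limits SNAI1, ZEB2, TWIST1 and the microRNA precursors.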
